A study of Arabidopsis thaliana with 12 samples.

Results

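The Arabidopsis thaliana double mutant clf28swn7, which carries the alleles clf28 and swn7 of the genes CLF and SWN, was set against wild-type (WT) seedlings over all annotated genes. The comparison used 6 of the 12 RNA-seq libraries, 3 from clf28swn7 and 3 from WT, and the members were all 33602 genes of the expression table. Both groups were whole seedlings of the Col-0 ecotype, harvested 10 days after germination from agar medium with sucrose under long days. The other 6 libraries came from 2 further mutants of Polycomb components, emf1-2 and ring1ab (3 each), of the same ecotype and age, and they enter below only where a gene group was also compared directly with them. By the study's description of the mutants, the aerial parts of both clf28swn7 and emf1-2 failed to pass from embryonic to vegetative development. The root of clf28swn7 was stunted and partly embryonic, whereas the root of emf1-2 was like that of WT. The ring1ab line was a weak one. A whole-seedling library therefore mixes different organs in different genotypes, and in such bulk samples fewer cells of a type cannot be told apart from less RNA per cell.

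CLF and SWN are the histone methyltransferases of the Polycomb Repressive Complex 2 (PRC2) in vegetative tissue of Arabidopsis. The complex places trimethyl marks on lysine 27 of histone H3 over genes that are to stay silent, and EMF1 is associated with it. The E3 ligases RING1A and RING1B belong to PRC1, a separate Polycomb complex that places ubiquitin on histone H2A. Plants without PRC2 activity are known for keeping seed programmes after germination, for callus-like growth and for the expression of floral genes in seedlings.

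Expression is given as FPKM, fragments per kilobase of transcript, scaled to the mapped fragments of the library. A gene was tested where at least 3 libraries reached 1 FPKM, which held for 21227 genes. A gene is said to have risen or fallen where limma, fitted to log2(FPKM + 1) over all 12 libraries, gave a change of at least 1 on the log2 scale with p under 0.05. Log2 fold changes are clf28swn7 minus WT on that scale, which understates the change of low genes, and they are given with their standard error (SE). Adjusted p-values follow Benjamini and Hochberg over all tested genes. Of the tested genes, 3196 (15.1%) rose in clf28swn7 and 2612 (12.3%) fell, and the median change over all tested genes was 0.07. The level of every clf28swn7 library lay above every WT library for 42.3% of the tested genes, and below every WT library for 35.2%. Changes of at least 5 on the log2 scale were called for 174 genes that rose and 24 that fell. Among the genes that rose, 187 were listed at 0 in all WT libraries, and among those that fell, 41 were listed at 0 in all clf28swn7 libraries. No fold change is given for a gene listed at 0 throughout a group. Genes near 0 in WT could pass the FPKM minimum only through the mutants, so for each gene list the number of members and the number tested are both given, and the median refers to the tested members.

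**Figure D1:**
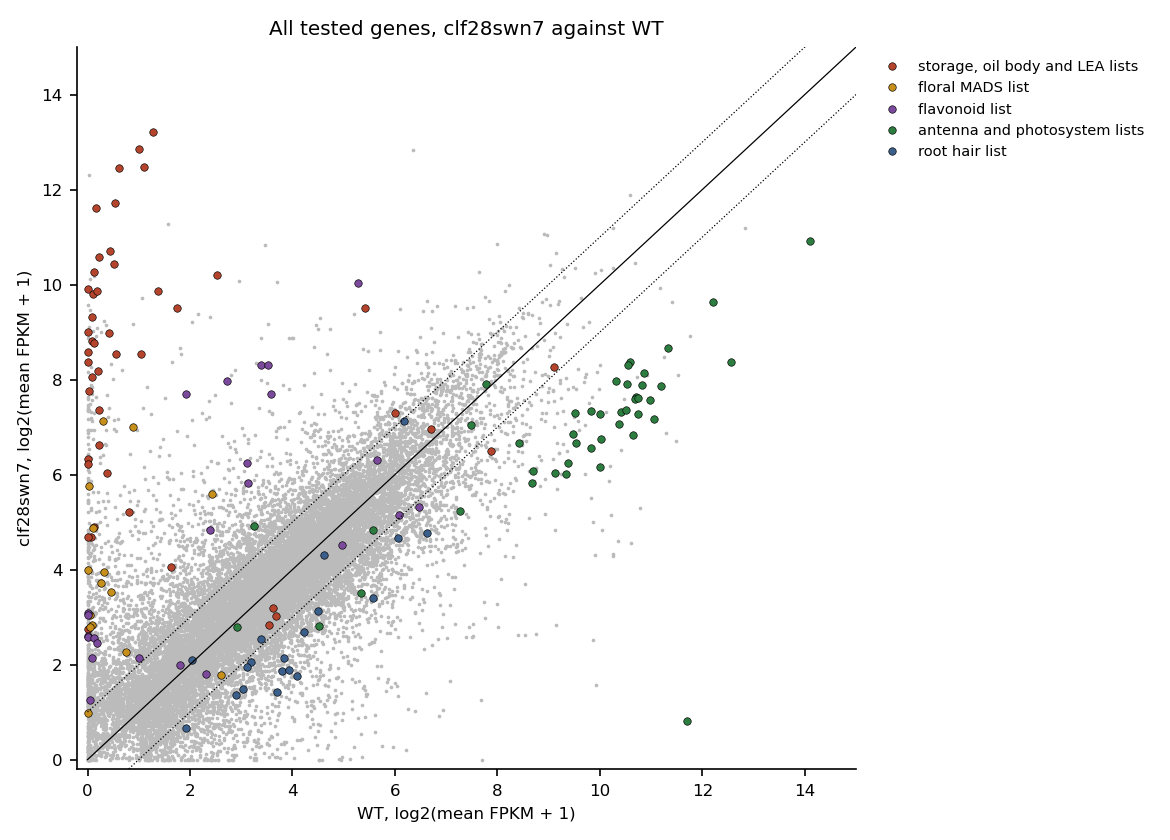
Mean expression of each tested gene in clf28swn7 seedlings (vertical axis) against WT seedlings (horizontal axis), both as log2(mean FPKM + 1) of 3 libraries, with members of gene lists in 5 colours and dotted lines at a difference of 1. Most storage, oil body and LEA (late embryogenesis abundant) genes lie along the upper left edge with WT means near 0, and most antenna and photosystem genes lie below the lower dotted line at the right.

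The mutated genes were checked first. CLF was measured at 0.511, 0.224 and 0.169 FPKM in clf28swn7, against 9.17, 9.56 and 7.98 FPKM in WT. SWN stood at 3.8, 3.62 and 3.36 FPKM in clf28swn7, against 15.8, 15.8 and 17.6 FPKM in WT. Both fell and neither overlapped between the groups, while residual SWN reads were still counted. Of the 8 listed PRC2 subunits 6 were tested, and no other one was called, with log2 fold changes of 0.54 for MSI1, 0.15 for EMF2, 0.15 for FIE and 0.03 for VRN2. Outside the core complex, EMF1 averaged 54 FPKM in clf28swn7 and 8.05 FPKM in WT, a log2 fold change of 2.61. RING1A averaged 12.5 and RING1B 15.8 FPKM in clf28swn7, against 4.75 and 7.07 FPKM in WT, with log2 fold changes of 1.24 and 1.06. EMF1, RING1A and RING1B were picked after their values were seen. Transcripts of EMF1 in the libraries labelled emf1-2, and of RING1A in those labelled ring1ab, were not lower than in WT, so these libraries are called by their labels.

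Depth and composition differed between the groups. The number of fragments behind each library, recovered from the smallest steps of the FPKM values, was 14100000, 15000000 and 14400000 in clf28swn7 and 18900000, 20200000 and 18500000 in WT. WT replicate 1 stood apart in the RNA of organelles and ribosomes. Genes of the chloroplast genome took 0.0372%, 0.0329% and 0.0324% of the summed FPKM in clf28swn7, against 2.41%, 0.271% and 0.195% in WT. Results that rest on a single library are given with and without it. The labelled tissue was checked against defining markers, and in clf28swn7 8 of 9 leaf mesophyll markers, 1 of 5 guard cell markers and 5 of 6 root hair markers reached at least 1 FPKM in every library. In WT 9 of 9, 5 of 5 and 6 of 6 did.

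The upstream sequences of a few genes with large changes are shown because the largest increases belong to genes of the seed maturation programme. Seed promoters are known for the RY element, read by the B3-domain factors ABI3, FUS3 and LEC2, and for ACGT elements, read by bZIP factors such as ABI5. The 250 bases before the annotated gene start are given 5′ to 3′ on the strand of the gene, from RefSeq with the build TAIR10.1. In the seed genes, capitals mark CATGCA (the core of the RY element) and ACGTG (an ACGT element) on either strand. In PSBQ-2, an extrinsic subunit of photosystem II and one of the genes that fell, capitals mark ACGTG and GATAAG (the core of the I-box, known from light-regulated promoters). PSBQ-2 was chosen as the photosystem subunit with the largest decrease among those whose window holds the I-box core. Its I-box core was therefore fixed by the choice. CRA1 and CRU3 encode cruciferins, the main globulins of the seed, OLEO1 encodes the main oleosin of seed oil bodies, and EM1 encodes a LEA protein. The windows lie at chr5:17758337-17758586 on the minus strand for CRA1, chr4:14087306-14087555 on the plus strand for CRU3 and chr4:12900180-12900429 on the plus strand for OLEO1. Those of EM1 and PSBQ-2 lie at chr3:19214472-19214721 on the plus strand and at chr4:2673244-2673493 on the minus strand.
CRA1: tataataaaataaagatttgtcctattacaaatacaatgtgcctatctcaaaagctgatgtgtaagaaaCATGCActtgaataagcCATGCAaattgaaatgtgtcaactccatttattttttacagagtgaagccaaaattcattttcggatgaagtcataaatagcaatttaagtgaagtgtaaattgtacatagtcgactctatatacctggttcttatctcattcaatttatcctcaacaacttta
CRU3: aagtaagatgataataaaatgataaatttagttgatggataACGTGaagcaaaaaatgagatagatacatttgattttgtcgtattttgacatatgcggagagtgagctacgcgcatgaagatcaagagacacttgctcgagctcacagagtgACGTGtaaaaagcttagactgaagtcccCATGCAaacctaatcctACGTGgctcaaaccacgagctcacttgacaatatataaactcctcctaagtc
OLEO1: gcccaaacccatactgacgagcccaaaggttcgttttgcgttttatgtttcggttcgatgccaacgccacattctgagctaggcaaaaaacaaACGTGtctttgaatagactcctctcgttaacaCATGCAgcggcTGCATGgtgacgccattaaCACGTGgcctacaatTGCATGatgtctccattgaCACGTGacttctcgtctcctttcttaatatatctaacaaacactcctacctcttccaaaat
EM1: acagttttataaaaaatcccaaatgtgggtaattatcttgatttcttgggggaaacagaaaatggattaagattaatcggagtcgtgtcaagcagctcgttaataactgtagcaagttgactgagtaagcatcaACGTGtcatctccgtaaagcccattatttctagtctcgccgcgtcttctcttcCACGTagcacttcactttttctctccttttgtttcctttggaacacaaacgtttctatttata
PSBQ-2: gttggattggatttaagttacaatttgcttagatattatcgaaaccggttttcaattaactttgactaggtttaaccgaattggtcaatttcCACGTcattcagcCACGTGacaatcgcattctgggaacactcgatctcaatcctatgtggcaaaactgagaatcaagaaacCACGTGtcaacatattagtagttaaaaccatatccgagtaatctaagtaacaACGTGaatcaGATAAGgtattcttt

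CRA1 held 2 RY cores and 0 ACGT elements in this window, CRU3 held 1 and 3, OLEO1 held 3 and 3, and EM1 held 0 and 2. PSBQ-2 held 4 ACGT elements, 1 I-box core and 0 RY cores. The I-box core is not marked in the seed genes, where CRA1 also held 1 and CRU3, OLEO1 and EM1 held 0. Over all windows of this length, the RY core was found in 8.51% of 26699 genes. It was found in 12.5% of the genes that rose, 9.22% of those that fell and 38.4% of those that rose by at least 5 on the log2 scale (66 of 172). The ACGT element was found in 23.1% of all windows, 32% of those of genes that rose, 24.3% of those of genes that fell and 66.3% of those of genes that rose by at least 5. Of the lists described below, 8 of 9 storage protein genes, 9 of 14 oil body genes and 8 of 25 LEA genes held the RY core, against 0 of 21 light harvesting antenna, 3 of 23 photosystem and 4 of 24 Calvin cycle genes. The ACGT element was held by 19 of 25 LEA genes but also by 9 of 21 antenna genes and 10 of 23 photosystem genes. The I-box core was in 12.2% of all windows, 15.6% of those of genes that fell, 12.4% of those of genes that rose and 15.1% of those of genes that rose by at least 5. It was in 5 of the 23 photosystem windows and 3 of the 14 oil body windows. The palindrome CACGTG holds ACGTG on both strands and was counted once, and RY and ACGT matches can share bases. A match of letters is given as a description of the window only.

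The regulators of seed maturation rose together. This list holds the B3-domain factors ABI3, FUS3 and LEC2, the AP2-type factor ABI4, the bZIP factors ABI5 and EEL, and the NF-Y subunits LEC1 and NF-YB6, which together switch on storage and desiccation genes in the developing seed. Of the 12 listed regulators 10 were tested and 10 rose, with a median log2 fold change of 3.41. ABI3 stood at 89.2, 91.8 and 94.1 FPKM in clf28swn7, against 0, 0.0452 and 0.0181 FPKM in WT, a log2 fold change of 6.50 (SE 0.18, limma adjusted p = 2.46e-10). FUS3 reached 35.3, 31.5 and 41.7 FPKM in clf28swn7, against 0.139, 0.0896 and 0.117 FPKM in WT (log2 fold change 5.05). The libraries of each group lay close together for both genes, and the lowest clf28swn7 value was far above the highest WT value. ABI5 stood at 104, 115 and 100 FPKM in clf28swn7, against 1.89, 1.33 and 2.07 FPKM in WT, where it was already measurable (log2 fold change 5.29, SE 0.146). ABI4 was measured at 64.2, 71.4 and 66.6 FPKM in clf28swn7 and was listed at 0 in all WT libraries. NF-YB6, a close relative of LEC1, stood at 12.8, 10.2 and 10.8 FPKM in clf28swn7, against 0, 0.109 and 0.0942 FPKM in WT (log2 fold change 3.52). The early embryo regulators were much lower than ABI3. LEC2 stood at 2.38, 3 and 2.87 FPKM in clf28swn7, against 0, 0.122 and 0.15 FPKM in WT (log2 fold change 1.78), and LEC1 at 1.23, 1.04 and 0.409 FPKM in clf28swn7, against 0 in all WT libraries, which was too low to be tested.

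Storage protein transcripts made up 4.89% to 5.47% of the summed FPKM of the clf28swn7 libraries. The 9 listed genes, which encode the cruciferins, the seed storage albumins SESA1 to SESA5 and the vicilin-like PAP85, were all tested and 9 rose, with a median log2 fold change of 11.44. Their summed level was 33111 to 37313 FPKM in clf28swn7, against 2.48 to 12.8 FPKM in WT, where replicate 3 held most of the trace. SESA1 stood at 2972, 3008 and 3335 FPKM in clf28swn7, against 0, 0 and 0.384 FPKM in WT (log2 fold change 11.44, SE 0.401, limma adjusted p = 1.09e-09). SESA5, the albumin gene outside the tandem cluster of chromosome 4, stood at 606, 439 and 859 FPKM in clf28swn7, against 0, 0 and 0.195 FPKM in WT (log2 fold change 9.17, SE 0.405). PAP85 averaged 372 FPKM in clf28swn7 and 1.05 FPKM in WT. SESA1 to SESA4 are neighbouring copies with similar sequence, so reads may have been divided among them.

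Proteins that coat oil bodies followed. Of 14 listed genes 13 were tested and 10 rose (median log2 fold change 6.22), and their summed level was 5871 to 6787 FPKM in clf28swn7, against 33.8 to 41 FPKM in WT. Oleosins keep seed oil in small droplets, and OLEO2 stood at 1440, 1521 and 1621 FPKM in clf28swn7, against 0, 0 and 0.495 FPKM in WT (log2 fold change 10.38, SE 0.255). The caleosin CLO1 reached 206, 213 and 227 FPKM in clf28swn7, against 0, 0.0465 and 0 FPKM in WT (log2 fold change 7.74). The steroleosin-like genes were divided, since HSD5 and HSD6 rose (log2 fold changes 5.65 and 4.61) whereas HSD2 and HSD3, at −0.69 and −0.43, were not called.

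The enzymes that make seed oil showed no such common increase. Of 21 listed genes 6 rose, 3 fell and 12 were not called, with a median log2 fold change of 0.12, close to that of all tested genes. FAE1, the elongase that makes the very long chain fatty acids of seed oil, was measured at 48.9, 57.8 and 68.8 FPKM in clf28swn7 and was listed at 0 in all WT libraries. The sucrose synthase SUS2, which feeds sugar into seed metabolism, stood at 35.2, 31.2 and 38.2 FPKM in clf28swn7, against 0.564, 0.658 and 0.612 FPKM in WT (log2 fold change 4.47). WRI1, the AP2 factor that controls fatty acid synthesis in seeds, stood at 22.2, 20.5 and 21.1 FPKM in clf28swn7, against 4.47, 6.36 and 5.72 FPKM in WT (log2 fold change 1.78, SE 0.132). Plastid enzymes of fatty acid synthesis such as KAS1, BCCP1 and MOD1 were not called, with log2 fold changes between −0.32 and 0.12. The soluble acyltransferase DGAT3 fell, with 59.5, 63.4 and 65.6 FPKM in clf28swn7, against 144, 183 and 181 FPKM in WT (log2 fold change −1.41).

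Genes of desiccation tolerance rose almost as a whole. LEA proteins and dehydrins protect cells as they dry, and of 25 listed genes 25 were tested, 22 rose and 1 fell (median log2 fold change 7.77). Their sum was 10521 to 11951 FPKM in clf28swn7, against 856 to 1156 FPKM in WT. LEA4-2 stood at 835, 1026 and 929 FPKM in clf28swn7, against 0.218, 0.102 and 0.111 FPKM in WT (log2 fold change 9.67, SE 0.213). PER1, a peroxiredoxin of dormant seeds, stood at 793, 826 and 1035 FPKM in clf28swn7, against 0, 0.0502 and 0.164 FPKM in WT (log2 fold change 9.68). In both genes, the WT libraries lay at or near 0. EM1 was measured at 863, 1136 and 861 FPKM and TIP3;1, an aquaporin of the storage vacuole, at 420, 424 and 687 FPKM in clf28swn7, and both were listed at 0 in all WT libraries. The members that did not rise are known for their response to cold and drought in vegetative tissue. That trait does not set them apart, since COR15A, a cold gene described below with the ABA genes, rose. COR47 and LTI29 were not called, with log2 fold changes of −0.84 and 0.25, and ERD14 fell, at 91.2, 87.1 and 91.4 FPKM in clf28swn7, against 163, 188 and 350 FPKM in WT (log2 fold change −1.28). The call of ERD14 rested on WT replicate 3, without which the log2 fold change was −0.95.

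The seed lists stood apart in different ways when clf28swn7 was set directly against the other mutants, where 8.35% of tested genes were higher than in the libraries labelled emf1-2 and 5.54% lower, and 8.74% were higher than in the libraries labelled ring1ab and 11.9% lower. Against emf1-2, 9 of 9 storage protein genes and 22 of 25 LEA genes were higher, with median differences of 7.21 and 2.69 on the log2 scale. Against ring1ab, 4 of 9 storage protein genes were higher with a median difference of 1.08, whereas 20 of 25 LEA genes were higher and 1 lower with a median of 3.73. FUS3 and FAE1 exceeded the emf1-2 libraries by 4.28 and 5.85 but the ring1ab libraries by 0.66 and 0.67, while the order was turned round for ABI5, at 0.33 against emf1-2 and 4.37 against ring1ab. EM6, a LEA gene with 425, 507 and 417 FPKM in clf28swn7 and at most 0.0886 FPKM in WT, differed by 4.13 from emf1-2 and by 8.36 from ring1ab.

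Other tissues of the seed were represented unevenly. Of 16 listed endosperm genes 5 were tested and 4 rose. Among them were SUC5, a sucrose carrier of the endosperm, at 11.5, 8.01 and 9.02 FPKM in clf28swn7, against 0.175, 0.328 and 0.267 FPKM in WT (log2 fold change 3.05), and the expansin EXP2 at 5.06, 5.99 and 7.84 FPKM in clf28swn7, listed at 0 in WT. The summed level of 6 defining endosperm markers was 2.66 to 3.71 FPKM in clf28swn7, against 1.16 to 1.91 FPKM in WT, and the markers went different ways. ZOU, a factor of endosperm breakdown and the only marker tested, rose to 1.35, 1.17 and 2.18 FPKM in clf28swn7 and was listed at 0 in WT. FWA, at 0.941, 1.32 and 0.885 FPKM in clf28swn7 and 0.0216, 0 and 0 FPKM in WT, was too low to be tested. PHE1 and AGL62, also not tested, were lower in every clf28swn7 library than in any WT library, and FIS2 was at 0 in both groups. Of 18 seed coat genes 11 were tested, 4 rose and 2 fell. STK and SHP1, which also act in ovules and fruit, and MYB5 rose, whereas BAN, TT2 and TT12, which act in tannin synthesis of the seed coat, were at most 0.45 FPKM in clf28swn7 and listed at 0 in WT. MUM2, an enzyme of seed coat mucilage, fell to 9.17, 9.25 and 11.1 FPKM in clf28swn7, against 56.6, 58.2 and 58.7 FPKM in WT (log2 fold change −2.45). The part of these tissues in the seed signal was not tested.

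**Figure D2:**
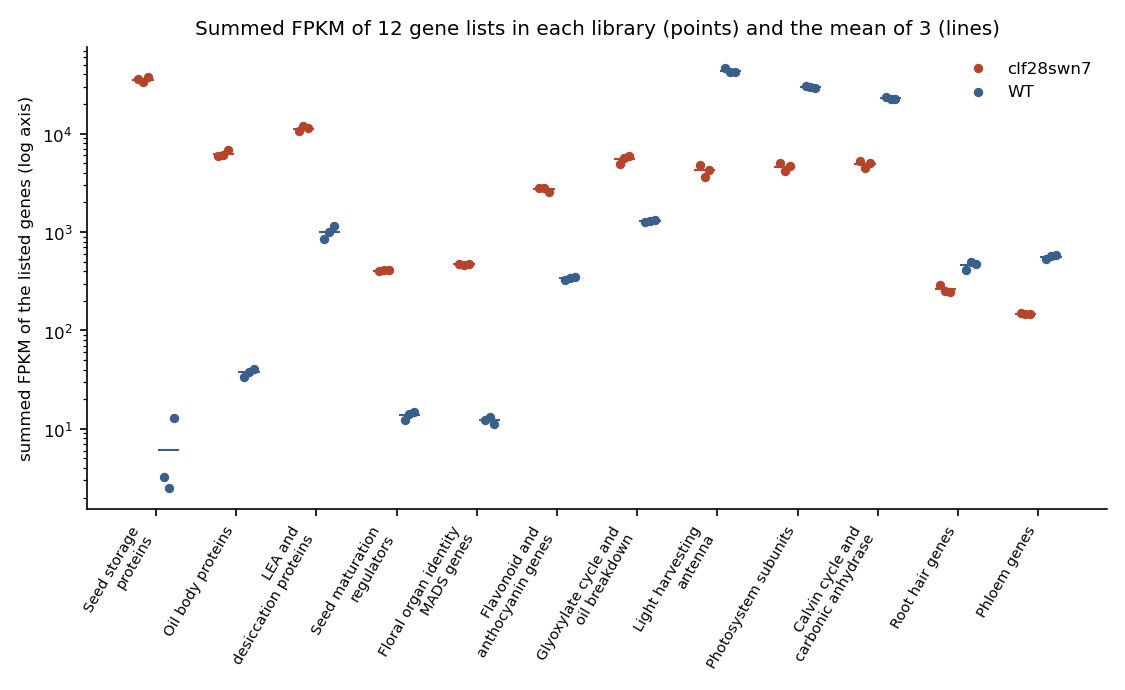
Summed FPKM of 12 gene lists (logarithmic vertical axis) in each of the 3 clf28swn7 and 3 WT libraries, one point per library. Storage protein genes sum to 33111 to 37313 FPKM in clf28swn7 and 2.48 to 12.8 FPKM in WT, and antenna genes to 3629 to 4819 FPKM in clf28swn7 and 42091 to 46457 FPKM in WT.

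Factors that mark the embryo and its stem cells rose as well. The PLT/AIL family of AP2 factors maintains the root stem cell niche and can induce embryos when overexpressed, and of 7 listed genes 6 were tested and 5 rose (median log2 fold change 2.71). AIL5 stood at 116, 127 and 116 FPKM in clf28swn7, against 2.13, 2.45 and 2.46 FPKM in WT (log2 fold change 5.17, SE 0.161, limma adjusted p = 4.88e-10). BBM, named for the embryos it induces, stood at 9.02, 8.61 and 10.5 FPKM in clf28swn7, against 0.535, 0.29 and 0.515 FPKM in WT (log2 fold change 2.84). PLT3 reached 21.8, 21.4 and 22.1 FPKM in clf28swn7, against 2.8, 2.82 and 2.88 FPKM in WT (log2 fold change 2.57). In each of these genes the 3 libraries of a group were close together and the groups were apart.

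WOX homeodomain factors pattern the embryo and organise stem cell niches. Of 15 listed genes 11 were tested, 6 rose and 0 fell (median log2 fold change 2.22). WOX9, which acts in the early embryo, stood at 28.2, 25.2 and 28.9 FPKM in clf28swn7, against 0, 0 and 0.0354 FPKM in WT (log2 fold change 4.81). WOX5, the marker of the quiescent centre of the root, was more variable at 15, 21.8 and 11.9 FPKM in clf28swn7, against 0.661, 0.888 and 0.859 FPKM in WT (log2 fold change 3.22, SE 0.215). WOX2, which patterns the apical embryo, stood at 12.1, 12.2 and 14.6 FPKM in clf28swn7, against 0.622, 0.441 and 0.586 FPKM in WT (log2 fold change 3.17). WUS, the organiser of the shoot stem cells, stayed at or below 0.34 FPKM in clf28swn7 and was listed at 0 in WT, too low to be tested.

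KNOX genes, some of which keep shoot meristem cells undifferentiated, rose in 5 of 9 listed and tested cases and fell in 0 (median log2 fold change 1.45). These were STM, KNAT1, KNAT2 and KNAT6 of the meristem class and KNATM, which lacks the homeodomain and rose by 2.03, whereas KNAT3, KNAT4, KNAT5 and KNAT7 were not called. STM stood at 32.4, 32.6 and 30.6 FPKM in clf28swn7, against 1.09, 2.19 and 1.6 FPKM in WT (log2 fold change 3.66, SE 0.151). KNAT1 stood at 74.5, 84.3 and 79.6 FPKM in clf28swn7, against 5.09, 8.48 and 7.07 FPKM in WT (log2 fold change 3.37). KNAT7, which acts in secondary wall formation, had a log2 fold change of −0.25. Set against the libraries labelled emf1-2, 0 KNOX genes were higher in clf28swn7 and 4 lower, with STM lower by 1.62 on the log2 scale.

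Organ boundary genes, which separate organs from the meristem, rose in 11 of 13 tested cases (14 listed). CUC2 stood at 17, 14.3 and 18 FPKM in clf28swn7, against 0.121, 0.298 and 0.267 FPKM in WT (log2 fold change 3.82). CUC1 and CUC3, its partners in cotyledon separation, rose by 3.55 and 3.70 on the log2 scale. RAX1, which starts axillary meristems, reached 24.8, 27.5 and 28.3 FPKM in clf28swn7, against 1.26, 1.77 and 1.04 FPKM in WT (log2 fold change 3.57), whereas RAX3 was not called at −0.97. Without WT replicate 1 or clf28swn7 replicate 2, 1 boundary gene fell. Leaf polarity genes moved little, with 3 of 18 tested genes higher and 1 lower (19 listed, median log2 fold change 0.33). CRC, a YABBY gene of the carpel and nectary, was measured at 41.5, 32.3 and 33.4 FPKM in clf28swn7 and listed at 0 in WT. Another YABBY gene, YAB5, which acts in leaves, fell to 2.58, 2.22 and 2.44 FPKM in clf28swn7, against 22, 19.7 and 21.3 FPKM in WT (log2 fold change −2.69). KAN3 rose by 1.06, a call that was lost without WT replicate 1, where the value was 0.97.

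**Figure D3:**
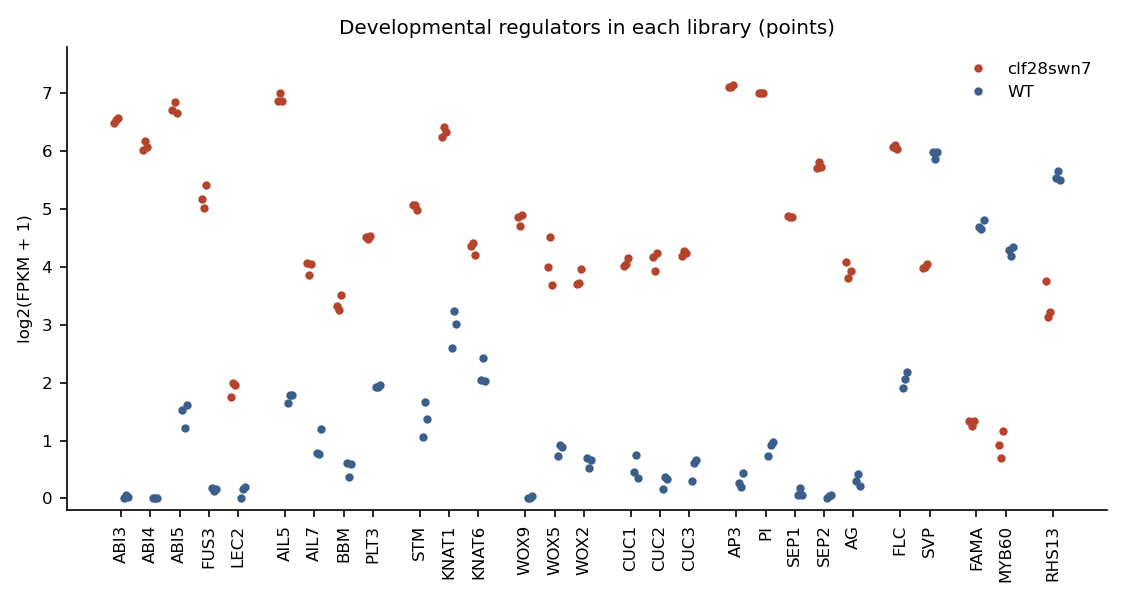
Expression of 28 regulators of seed, embryo, meristem, flower, stomata and root hair in each library, as log2(FPKM + 1), with clf28swn7 and WT libraries side by side. ABI3, AP3 and AIL5 sit above 6 in all clf28swn7 libraries and below 2 in all WT libraries, while SVP, FAMA, MYB60 and RHS13 are lower in clf28swn7 than in WT.

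Floral organ identity genes rose as a group. Of 16 listed MADS-box genes 15 were tested and 13 rose (median log2 fold change 3.20), and their sum was 468 to 474 FPKM in clf28swn7, against 11.3 to 13.3 FPKM in WT. AP3 and PI, which specify petals and stamens, were the most abundant. AP3 stood at 137, 137 and 140 FPKM in clf28swn7, against 0.204, 0.143 and 0.364 FPKM in WT (log2 fold change 6.82, SE 0.132, limma adjusted p = 4.38e-11), and PI at 127 FPKM in each clf28swn7 library, against 0.662, 0.899 and 0.955 FPKM in WT (log2 fold change 6.12). SEP2, which acts in all floral organs, stood at 51.2, 54.9 and 52.2 FPKM in clf28swn7, against 0, 0.035 and 0.0382 FPKM in WT (log2 fold change 5.71). AG, which specifies stamens and carpels, was lower than these at 15.9, 13 and 14.3 FPKM in clf28swn7, against 0.228, 0.337 and 0.167 FPKM in WT (log2 fold change 3.63). AP1, of sepals and floral meristems, stood at 8.14, 7.59 and 5.96 FPKM in clf28swn7, against 0.0863, 0 and 0 FPKM in WT (log2 fold change 2.99). SEP4 was not called at −0.84. Set against the libraries labelled emf1-2, 4 of these genes were higher in clf28swn7 and 8 lower, with a median difference of −1.09, whereas 12 genes were higher in clf28swn7 than in ring1ab and 0 lower (median 2.75).

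Most genes of later floral development were too low to be tested. Of 22 anther and tapetum genes 7 were tested, 1 rose and 1 fell, and of 23 pollen genes 7 were tested and 0 were called by limma, while 3 of the 7 had an unadjusted p under 0.05, among them TUB9 with a log2 fold change of −0.51. MYB26, which controls wall thickening in anthers, was measured at 9.79, 8.17 and 8.17 FPKM in clf28swn7 and listed at 0 in WT. The pollen and anther markers MS1 and DUO1 were listed at 0 in both groups. Beside the organ identity genes, the 9 matched markers of anther and pollen had a summed level of 8.02 to 8.71 FPKM in clf28swn7 and 8.28 to 10 FPKM in WT.

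Flowering time genes moved in both directions. Of 29 listed genes 25 were tested, 9 rose and 3 fell, with a median log2 fold change of 0.09. FLC, the repressor of flowering that PRC2 is known to silence in the cold, stood at 66.5, 67.7 and 64.5 FPKM in clf28swn7, against 2.76, 3.19 and 3.52 FPKM in WT (log2 fold change 4.02, SE 0.131). SVP, which acts with FLC, fell to 14.8, 15 and 15.6 FPKM in clf28swn7, against 62.2, 57.3 and 62.5 FPKM in WT (log2 fold change −1.93). AGL24, a promoter of flowering related to SVP, rose to 32.5, 37.9 and 37.1 FPKM in clf28swn7, against 1.16, 2.06 and 1.74 FPKM in WT (log2 fold change 3.81). MFT, a relative of FT that acts in seed germination, had the largest increase of the list at 170, 195 and 197 FPKM in clf28swn7, against 3.3, 4.46 and 4.72 FPKM in WT (log2 fold change 5.20). FT itself, the mobile flowering signal, stood at 1.05, 1.27 and 0.776 FPKM in clf28swn7, against 0.062, 0.23 and 0.316 FPKM in WT, and was too low to be tested, as was LFY. SOC1 was not called at −0.70. The SPL factors of the juvenile to adult transition were divided, with SPL3 and SPL2 lower (−2.68 and −1.77) and SPL4 and SPL9 higher (1.71 and 1.11) among 10 tested genes.

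**Figure D4:**
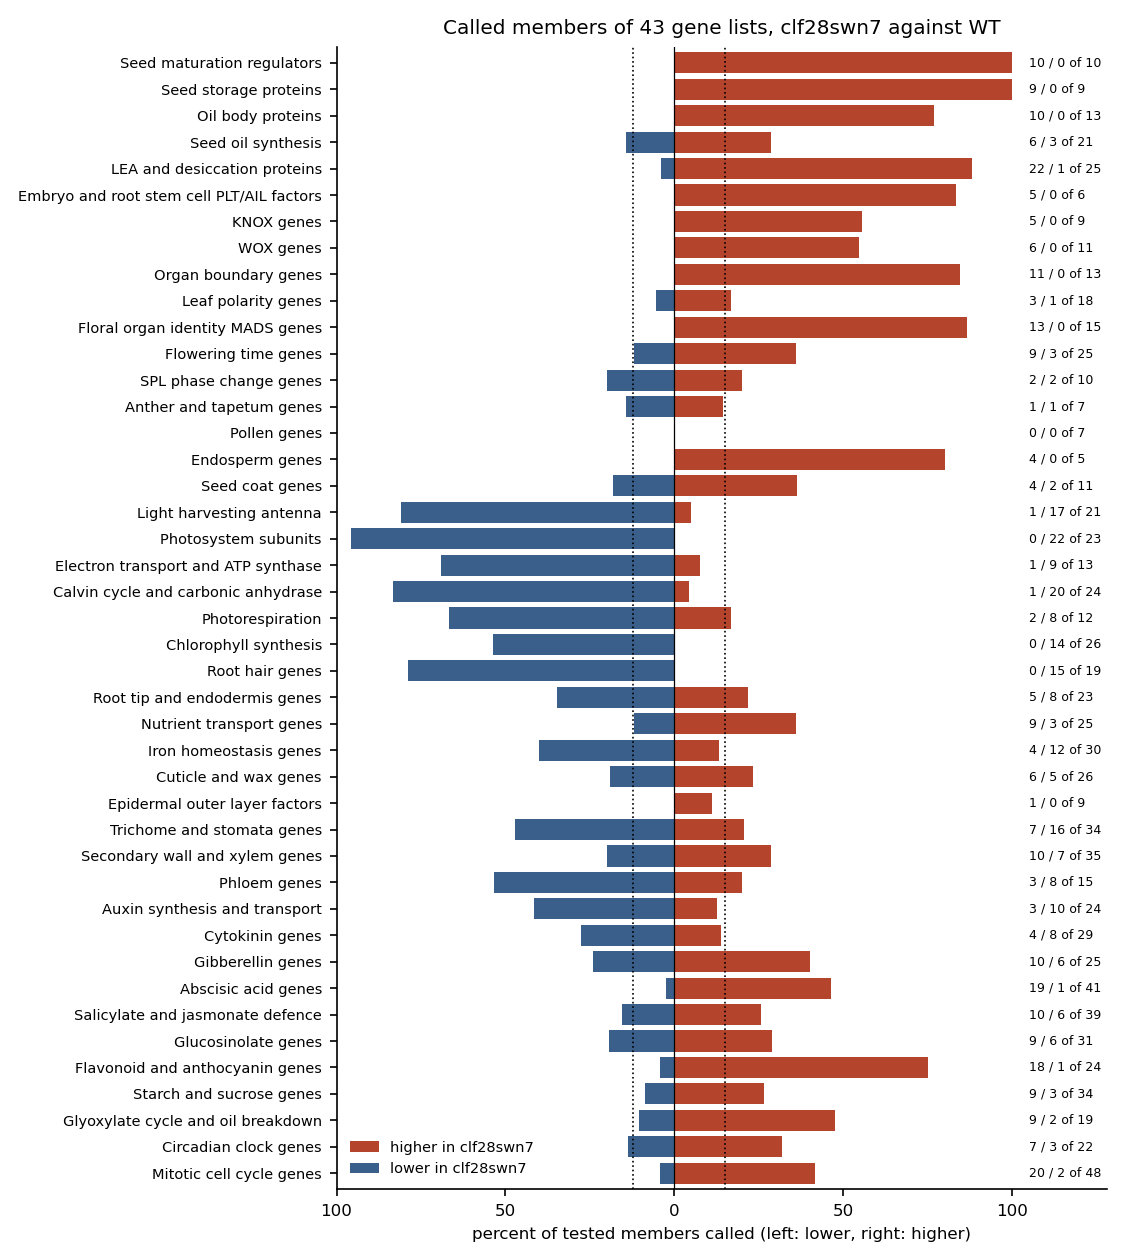
Percentage of tested genes that fell (bars to the left) and rose (bars to the right) in clf28swn7 against WT for 43 gene lists, with dotted lines at the shares over all tested genes, 12.3% lower and 15.1% higher. Seed storage proteins and seed maturation regulators rose in every tested member, and the photosystem and antenna lists fell in 22 of 23 and 17 of 21 members.

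Nuclear genes of photosynthesis fell as a group. The antenna binds chlorophyll and passes light energy to the photosystems, and of 21 listed and tested antenna genes 17 fell and 1 rose, with a median log2 fold change of −3.07. Antenna transcripts made up 0.535% to 0.711% of the summed FPKM in clf28swn7, against 6.36% to 7.01% in WT. LHB1B2 stood at 382, 283 and 324 FPKM in clf28swn7, against 6399, 5829 and 5941 FPKM in WT (log2 fold change −4.20, SE 0.127). LHCB4.1 stood at 177, 113 and 138 FPKM in clf28swn7, against 2226, 2033 and 2142 FPKM in WT (log2 fold change −3.91). Within the clf28swn7 group replicate 2 was the lowest for both genes, and the spread was small beside the distance to WT. CAB1, CAB2 and CAB3, as well as LHB1B1 and LHB1B2, are near-identical copies among which reads may have been divided. LHCB4.3, a minor antenna gene, rose to 31, 26.6 and 30.6 FPKM in clf28swn7, against 8.27, 9.99 and 7.39 FPKM in WT (log2 fold change 1.68).

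Photosystem subunits fell in 22 of 23 cases, with a median log2 fold change of −2.73 and a sum of 4140 to 5085 FPKM in clf28swn7, against 29334 to 30515 FPKM in WT. PSAE-1, a subunit of photosystem I, stood at 205, 169 and 193 FPKM in clf28swn7, against 2023, 2070 and 1945 FPKM in WT (log2 fold change −3.41, SE 0.107, limma adjusted p = 5.15e-10). PSBQ-2, shown above, stood at 149, 116 and 134 FPKM in clf28swn7, against 1416, 1281 and 1303 FPKM in WT (log2 fold change −3.32). The exception was PSBS, which dissipates excess light, at 251, 228 and 237 FPKM in clf28swn7 and 224, 212 and 222 FPKM in WT, a log2 fold change of 0.12 that was not called. Of 13 genes of electron transport and the ATP synthase 9 fell and 1 rose (median −1.80). Plastocyanin PETE2 fell by 2.87 on the log2 scale, whereas FD3, the ferredoxin of roots, rose to 131, 115 and 99.4 FPKM in clf28swn7, against 37.3, 40.6 and 40.2 FPKM in WT (log2 fold change 1.52).

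Carbon fixation followed the light reactions. Of 24 Calvin cycle and carbonic anhydrase genes 20 fell and 1 rose (median −1.79). CA1, a carbonic anhydrase of the chloroplast, stood at 6.42, 4.14 and 3.69 FPKM in clf28swn7, against 946, 924 and 912 FPKM in WT (log2 fold change −7.36, SE 0.411). The small subunits of Rubisco differed among each other. RBCS2B stood at 133, 101 and 113 FPKM in clf28swn7, against 2469, 2508 and 2498 FPKM in WT (log2 fold change −4.43), while RBCS1A stood at 2440, 2090 and 2445 FPKM in clf28swn7, against 7651, 7212 and 7093 FPKM in WT (log2 fold change −1.66). The copies of this family may share reads. TKL2, a transketolase, rose to 107, 108 and 114 FPKM in clf28swn7, against 17.5, 20 and 20.2 FPKM in WT (log2 fold change 2.45). In photorespiration 8 of 12 genes fell and 2 rose (median −2.40), among them the aminotransferase AGT lower by 3.71 and the glycolate oxidase GOX3 higher by 1.77. Chlorophyll synthesis was less affected, with 14 of 26 genes lower and 0 higher (median −1.13). The methyltransferase CHLM fell to 28.7, 23.5 and 14.1 FPKM in clf28swn7, against 155, 141 and 144 FPKM in WT (log2 fold change −2.73), and GLK1, a factor that activates photosynthesis genes, fell by 1.48.

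Set against the libraries labelled emf1-2, 4 antenna genes were higher in clf28swn7 and 1 lower, and 1 photosystem gene was higher and 0 lower. Of the Calvin cycle genes 3 were higher and 4 lower (median −0.65), and of the 12 photorespiration genes 0 were higher and 5 lower (median −0.90). Against the libraries labelled ring1ab, 0 antenna genes were higher and 17 lower, and 0 photosystem genes were higher and 22 lower. There 1 Calvin cycle gene was higher and 17 lower, and 2 photorespiration genes were higher and 8 lower. The list of 9 leaf mesophyll markers, which shares its genes with these lists, summed to 4370 to 5395 FPKM in clf28swn7, against 35961 to 39546 FPKM in WT. Its part in the result was not tested.

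Genes of trichomes and stomata fell more often than they rose. Of 37 trichome and stomata genes 34 were tested, 7 rose and 16 fell (median −0.93). FAMA, which ends the divisions of the guard cell lineage, stood at 1.52, 1.37 and 1.54 FPKM in clf28swn7, against 24.7, 24.2 and 27 FPKM in WT (log2 fold change −3.41, SE 0.09). KAT1, a potassium channel of guard cells, stood at 0.249, 0.234 and 0.288 FPKM in clf28swn7, against 13.1, 11 and 14.1 FPKM in WT (log2 fold change −3.44). SPCH, which starts the lineage, and MUTE, which acts after it, did not move alike, with log2 fold changes of −1.62 and 0.79, the second not called. Among the genes that rose were the receptor kinases ERL1 and ERL2, by 2.46 and 2.04, and the transcription factor SCRM, by 2.05. The 5 guard cell markers summed to 4.49 to 5.74 FPKM in clf28swn7, against 61.8 to 71.5 FPKM in WT. The trichome factor GL2, which also acts in the root epidermis, fell by 1.74, and TRY, an inhibitor of trichome fate, rose by 1.72. The related genes of the list did not follow TRY. ETC2 and ETC3 fell, at −1.32 and −1.05, CPC and ETC1 were not called, at −0.51 and −0.33, and TCL1 was not tested. Cuticle genes were divided, with 6 of 26 tested genes higher and 5 lower (27 listed, median −0.04). CER1, which acts in alkane synthesis for wax, rose to 107, 109 and 103 FPKM in clf28swn7, against 12, 14.6 and 14.8 FPKM in WT (log2 fold change 2.86). MYB16, a regulator of cuticle and conical cells, fell to 1.39, 1.47 and 1.34 FPKM in clf28swn7, against 27.5, 19.3 and 26.4 FPKM in WT (log2 fold change −3.39). The factors of the outer cell layer itself changed little, with PDF1 the single one of 9 that rose (log2 fold change 1.84).

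Vascular genes moved in both directions. Of 40 listed genes of secondary wall and xylem 35 were tested, 10 rose and 7 fell (median 0.41). Those that rose included PAL1 and PAL2, which open the phenylpropanoid pathway, C4H, 4CL1, CCR1 and COMT1, while the lignin enzymes HCT, REF8, CCOAOMT1 and CAD4 were not called, at 0.74, 0.86, 0.80 and 0.41. PAL1 stood at 253, 242 and 213 FPKM in clf28swn7, against 48.7, 59.1 and 57.3 FPKM in WT (log2 fold change 2.08). Among those that fell were the lignin laccases LAC17 and IRX12, CESA4 and CESA8, the cellulose synthases of the secondary wall, by 1.19 and 1.16, and XCP2, a protease of xylem vessels, which stood at 12.3, 9.76 and 12.4 FPKM in clf28swn7, against 41.3, 53.7 and 49.8 FPKM in WT (log2 fold change −1.98). The 7 xylem markers summed to 27.6 to 32 FPKM in clf28swn7, against 83.8 to 113 FPKM in WT. Of 17 phloem genes 15 were tested, 3 rose and 8 fell (median −1.11). SWEET11 and SWEET12, which export sucrose for phloem loading, had the largest decreases. SWEET11 stood at 6.61, 6.82 and 5.24 FPKM in clf28swn7, against 172, 188 and 187 FPKM in WT (log2 fold change −4.67, SE 0.128). The sieve element proteins SEOA and SEOB fell by 1.61 and 2.25, whereas SMXL5, OPS and BRX, which act early in phloem formation, rose, BRX by 1.04.

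Genes of the root hair and of the endodermal barrier fell, and some genes of the root tip rose. Of 20 root hair genes 19 were tested, 15 fell and 0 rose (median −1.51), or 1 rose without WT replicate 2 or clf28swn7 replicate 3. RHS13 stood at 12.5, 7.77 and 8.33 FPKM in clf28swn7, against 45.4, 49.7 and 44.5 FPKM in WT (log2 fold change −2.20, SE 0.227). RSL4, which drives hair growth, fell to 0.632, 0.418 and 0.679 FPKM in clf28swn7, against 2.52, 2.81 and 3.1 FPKM in WT (log2 fold change −1.27), while RHD6, which acts before it, was not called at 0.05. Of 24 root tip and endodermis genes 23 were tested, 5 rose and 8 fell (median −0.62). The proteins CASP1 to CASP5, which place the Casparian strip, all fell. CASP1 stood at 20.8, 13.6 and 15.6 FPKM in clf28swn7, against 58.9, 63.6 and 70.4 FPKM in WT (log2 fold change −1.90), and CASP5 had the largest decrease at −2.96. SCR, which specifies the endodermis, rose to 43, 46.4 and 42.3 FPKM in clf28swn7, against 17, 18.1 and 19.5 FPKM in WT (log2 fold change 1.22), and the root cap factor SMB rose by 1.29. BRN1, another root cap factor, rose to 5.58, 4.38 and 4.76 FPKM in clf28swn7, against 1.92, 1.11 and 2.36 FPKM in WT, a call that was lost without WT replicate 2, where the log2 fold change was 0.91. Against the libraries labelled emf1-2, 10 root hair genes were higher in clf28swn7 and 0 lower, with a median difference of 1.00, and against ring1ab 0 were higher and 15 lower (median −1.70). The 6 root hair markers, which this list also holds in part, summed to 21.4 to 24.7 FPKM in clf28swn7, against 58.5 to 69.9 FPKM in WT, and their part in the result was not tested.

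Nutrient transport genes moved both ways. Of 29 nutrient transport genes 25 were tested, 9 rose and 3 fell (median 0.56). NRT1.5, which loads nitrate into the xylem of the root, fell to 3.5, 4.08 and 4.53 FPKM in clf28swn7, against 73, 101 and 106 FPKM in WT (log2 fold change −4.21, SE 0.133). NRT1.8, which takes nitrate out of the xylem, rose to 33.8, 35.8 and 47.1 FPKM in clf28swn7, against 0.173, 0.61 and 0.577 FPKM in WT (log2 fold change 4.78). Of 31 iron genes 30 were tested, 4 rose and 12 fell (median −0.38). FER2, the ferritin of seeds, rose to 154, 179 and 171 FPKM in clf28swn7, against 1.02, 1.12 and 1.21 FPKM in WT (log2 fold change 6.32), while FER1, the main ferritin of leaves, averaged 404 FPKM in clf28swn7 and 408 FPKM in WT. IRT1, the iron uptake transporter of the root, fell by 2.23, and NAS3, which makes the iron chelator nicotianamine, fell to 0.342, 0.215 and 0.503 FPKM in clf28swn7, against 3.68, 5.89 and 3.97 FPKM in WT (log2 fold change −2.01).

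Hormone pathways followed their own patterns. Abscisic acid (ABA) drives seed maturation and dormancy, and of 43 listed genes 41 were tested, 19 rose and 1 fell (median 0.81). The response genes led the list. RD29B, a late ABA response gene, stood at 568, 635 and 588 FPKM in clf28swn7, against 0.179, 0.151 and 0.429 FPKM in WT (log2 fold change 8.90, SE 0.342, limma adjusted p = 2.03e-09). COR15A, which protects the chloroplast in the cold, stood at 64.9, 80.7 and 65.6 FPKM in clf28swn7, against 1.64, 0.861 and 0.943 FPKM in WT (log2 fold change 5.07). Phosphatases that restrain ABA signalling rose, with log2 fold changes of 3.81 for AHG1, 3.63 for HAI3 and 2.73 for HAI1. The enzymes CYP707A1, CYP707A2 and CYP707A3, which break ABA down, rose by 2.67, 3.63 and 2.90. Synthesis enzymes moved less, with ABA1 and NCED5 higher by 1.56 and 1.61. NCED3, the synthesis gene of drought response, fell to 1.58, 0.857 and 1.15 FPKM in clf28swn7, against 2.52, 3.75 and 4.8 FPKM in WT (log2 fold change −1.08), a call that was lost without clf28swn7 replicate 2 (−0.96) or WT replicate 3 (−0.91). The number of ABA genes that fell was small and moved with single libraries, to 3 without WT replicate 1, 2 without clf28swn7 replicate 1 and 0 without WT replicate 3. DOG1, which sets seed dormancy, rose by 2.34. KIN1 and KIN2, which rose by 6.98 and 4.76, are neighbouring copies that may share reads.

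Gibberellin genes moved in both directions. Of 33 listed genes 25 were tested, 10 rose and 6 fell (median 0.60). RGL2, the DELLA repressor of germination, stood at 33.4, 40.9 and 39.5 FPKM in clf28swn7, against 1.17, 1.98 and 1.42 FPKM in WT (log2 fold change 3.95), whereas the DELLA gene GAI fell. GA20OX3, a synthesis enzyme of the seed, rose to 30.9, 34.4 and 32.8 FPKM in clf28swn7, against 0.659, 0.338 and 0.487 FPKM in WT (log2 fold change 4.50), and GA3OX1, which makes the active hormone, fell by 1.92. In the GASA family of gibberellin-regulated peptides, GASA3 was measured at 107, 148 and 111 FPKM in clf28swn7 and listed at 0 in WT. GASA6 fell to 5.6, 5.53 and 4.31 FPKM in clf28swn7, against 378, 334 and 305 FPKM in WT (log2 fold change −5.79, SE 0.16).

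Auxin carriers and cytokinin response genes fell more often than they rose. Of 30 auxin synthesis and transport genes 24 were tested, 3 rose and 10 fell (median −0.49). The efflux carriers PIN3, PIN4 and PIN7 fell by 1.43, 1.94 and 1.40. YUC4, a synthesis enzyme of the embryo and young organs, rose to 14.9, 13.1 and 15.1 FPKM in clf28swn7, against 0.228, 0.222 and 0.101 FPKM in WT (log2 fold change 3.70). Of 36 cytokinin genes 29 were tested, 4 rose and 8 fell (median −0.79). Among those that fell were the response regulators ARR4, ARR5, ARR6, ARR7, ARR15 and ARR16, which cytokinin itself induces. ARR4 stood at 20.9, 21.1 and 23 FPKM in clf28swn7, against 130, 116 and 131 FPKM in WT (log2 fold change −2.48). CKX1, which degrades cytokinin, was among the 4 genes that rose. It stood at 12, 13.1 and 12 FPKM in clf28swn7, against 0.799, 1.31 and 1.12 FPKM in WT (log2 fold change 2.69). Other genes of cytokinin synthesis and breakdown are not given here, and whether breakdown changed as a whole was not tested.

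Defence genes moved in both directions too. Of 44 listed genes 39 were tested, 10 rose and 6 fell (median 0.26). VSP1, a vegetative storage protein that jasmonate induces, stood at 118, 95.4 and 87.3 FPKM in clf28swn7, against 4.14, 6.1 and 6.76 FPKM in WT (log2 fold change 3.94). In jasmonate synthesis LOX2 and AOC3 rose by 1.32 and 1.38, whereas AOS and AOC2 fell by 1.39 and 1.74. The salicylate markers PR2 and PR5 fell. PR2 stood at 0.817, 1.08 and 0.279 FPKM in clf28swn7, against a wide spread of 6.14, 9.6 and 1.71 FPKM in WT. PR5 averaged 0.141 FPKM in clf28swn7, against 4.82 FPKM in WT. Other salicylate genes of the list were divided, since SARD1 rose by 1.75 and EDS1 fell by 1.42. ICS1, EDS5 and NPR1 were not called, at 0.89, −0.10 and −0.12. PR1 was listed at 0 in all clf28swn7 libraries and stood at 4.59, 19.8 and 0.993 FPKM in WT, and it was not called (log2 change past the threshold, limma adjusted p = 0.0944). PR1 was called without WT replicate 3 and when only the clf28swn7 and WT libraries were fitted. The same held with a pseudocount of 0.1 FPKM and with TPM rescaling (FPKM brought to a common sum). Glucosinolates are defence compounds of the mustard family, and of 32 listed genes 31 were tested, 9 rose and 6 fell (median −0.21). The myrosinases TGG1 and TGG2, which release toxic products from them and are made in guard cells and myrosin cells, had the largest decreases. TGG1 stood at 36.2, 40.4 and 39 FPKM in clf28swn7, against 1824, 1686 and 1803 FPKM in WT (log2 fold change −5.49, SE 0.157). CYP79B2, which makes the precursor of indole glucosinolates, rose to 145, 154 and 159 FPKM in clf28swn7, against 18.4, 26.1 and 26.2 FPKM in WT (log2 fold change 2.66).

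Flavonoid and anthocyanin genes rose. Of 28 listed genes 24 were tested, 18 rose and 1 fell (median 2.48), or 2 fell without WT replicate 1 or clf28swn7 replicate 1, with a sum of 2550 to 2835 FPKM in clf28swn7, against 324 to 350 FPKM in WT. TT4, the chalcone synthase that opens the pathway, stood at 1081, 1053 and 1006 FPKM in clf28swn7, against 41.3, 35.5 and 37.2 FPKM in WT (log2 fold change 4.75, SE 0.134, limma adjusted p = 2.61e-10). FLS1, which makes flavonols, stood at 317, 341 and 284 FPKM in clf28swn7, against 8.91, 8.94 and 10.5 FPKM in WT (log2 fold change 4.91). The late enzymes DFR and LDOX, which lead to anthocyanins, were far lower, with means of 4.9 and 4.45 FPKM in clf28swn7, against 0.0885 and 0.132 FPKM in WT. The MYB factors MYB90, MYB11 and MYB114 averaged 7.2, 5.1 and 4.99 FPKM in clf28swn7 and were listed at 0 in WT. Of these genes 16 were higher than in the libraries labelled emf1-2 and 17 higher than in those labelled ring1ab, with 1 lower in each case (medians 1.73 and 2.08).

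Selected enzymes of carbohydrate metabolism and of oil breakdown rose. Of 34 starch and sucrose genes 9 rose and 3 fell (median 0.40). BAM5, a beta-amylase, stood at 191, 170 and 121 FPKM in clf28swn7, against 0.185, 0.0985 and 0.162 FPKM in WT (log2 fold change 7.11). APL3, a subunit of the enzyme that makes the starch precursor in sink tissue, rose by 4.83, while APL1, its leaf form, fell by 1.36. The glyoxylate cycle turns seed oil into sugar after germination, and of 19 listed genes 9 rose and 2 fell (median 0.88). ICL, isocitrate lyase, stood at 1533, 1850 and 2054 FPKM in clf28swn7, against 12.4, 8.87 and 8.74 FPKM in WT (log2 fold change 7.37, SE 0.193). MLS, malate synthase, stood at 351, 426 and 445 FPKM in clf28swn7, against 1.75, 2.94 and 2.76 FPKM in WT (log2 fold change 6.88). The lipase gene SDP1, which starts oil breakdown, was not called at −0.62. PMDH1 and PMDH2, peroxisomal malate dehydrogenases, went opposite ways, at 1.28 and −2.88.

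Mitotic genes rose more often than they fell. Of 48 cell cycle genes 20 rose and 2 fell (median 0.92), and the sum was 683 to 721 FPKM in clf28swn7, against 391 to 458 FPKM in WT. The 6 subunits MCM2 to MCM7 of the replicative helicase rose by at least 1.37 on the log2 scale, and MCM2 stood at 23.4, 23.4 and 21.4 FPKM in clf28swn7, against 5.06, 6.72 and 5.75 FPKM in WT. CDKB1;1, a kinase of dividing cells, rose to 23.4, 25 and 23.8 FPKM in clf28swn7, against 4.69, 5.01 and 4.6 FPKM in WT (log2 fold change 2.12, SE 0.095). KRP1, an inhibitor of cyclin-dependent kinases, fell to 5.4, 6.29 and 7.43 FPKM in clf28swn7, against 21, 23.9 and 22.8 FPKM in WT (log2 fold change −1.68). Against the libraries labelled emf1-2, 2 cell cycle genes were higher and 1 lower. Among 22 clock genes 7 rose and 3 fell (median −0.41). The morning factors LHY and CCA1 rose by 3.39 and 2.49 and the evening factor LUX fell by 2.29. LHY stood at 12.6, 14.1 and 13.5 FPKM in clf28swn7, against 0.299, 0.359 and 0.459 FPKM in WT. The time of day at harvest is not given in the sources used here, and its part in these values was not tested.

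Gene families taken from the annotation were also counted, chosen after their values were seen. Of 41 K-box MADS genes 38 were tested, 23 rose and 3 fell. Of 104 B3-domain genes 68 were tested, 30 rose and 3 fell. AGL67, a MADS gene of the embryo, stood at 19, 19 and 15.9 FPKM in clf28swn7 and was listed at 0 in WT. Knottin-like genes, small cysteine-rich peptides, rose in 10 of 15 tested cases (43 in the table), with TI1, a trypsin inhibitor, at 938, 906 and 1330 FPKM in clf28swn7, against 7.11, 17.4 and 11.5 FPKM in WT (log2 fold change 6.41). Glutathione transferases, which detoxify, rose in 21 of 54 tested cases (58 in all) and fell in 5. MATE transporters rose in 22 of 50 tested cases (62 in all) and fell in 2.

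Other families fell more often than they rose. Xyloglucan-modifying XTH genes, which loosen the cell wall, fell in 16 of 29 tested cases and rose in 2 (median −1.24). XTH4 stood at 62.9, 63.6 and 63.1 FPKM in clf28swn7, against 577, 626 and 609 FPKM in WT (log2 fold change −3.24). Of 59 tested SAUR genes, small auxin-induced genes of growing tissue, 27 fell and 5 rose (median −0.79). Aquaporins fell in 14 of 25 tested cases and rose in 5 (median −1.63). Vegetative ones such as DELTA-TIP fell, with 99.7, 76.9 and 97 FPKM in clf28swn7, against 1388, 1326 and 1354 FPKM in WT (log2 fold change −3.89). BETA-TIP, the second seed form beside TIP3;1, rose to 93.4, 90.7 and 109 FPKM in clf28swn7, against 0.0452, 0.253 and 0.184 FPKM in WT (log2 fold change 6.41). Extensins, structural wall proteins, fell in 10 of 15 tested cases and rose in 2.

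The annotation of many genes names organs in which they are expressed. Among tested genes with such a note, 14% rose and 13% fell. Of 113 tested genes noted in the seed (159 in all) 49 rose and 6 fell. Of 108 noted in the embryo (191 in all) 39 rose and 6 fell, and of 89 noted in the stamen (131 in all) 31 rose and 5 fell. With untested genes included, 30.8%, 20.4% and 23.7% of these rose. Genes near 0 in WT could pass the FPKM minimum only through the mutants, which can raise the shares among tested genes. Of 18 genes noted in the root hair 1 rose and 16 fell, and of 16 noted in the juvenile leaf 0 rose and 8 fell. Genes noted in the root as a whole, 620 in number, were divided into 93 that rose and 113 that fell. By process, 28 of 64 genes of the response to karrikin, 27 of 75 of the response to ABA, 17 of 51 of nucleosome assembly and 12 of 38 of DNA replication rose, against 14.9% of all genes with a process. Of 65 genes of photosynthesis 1 rose and 48 fell. By location, 45 of 189 nucleolar genes rose and 0 fell, and 106 of 196 genes of the chloroplast thylakoid membrane fell and 8 rose. These notes draw in part on published expression of the same well-known genes, and a gene can carry several of them.

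**Figure D5:**
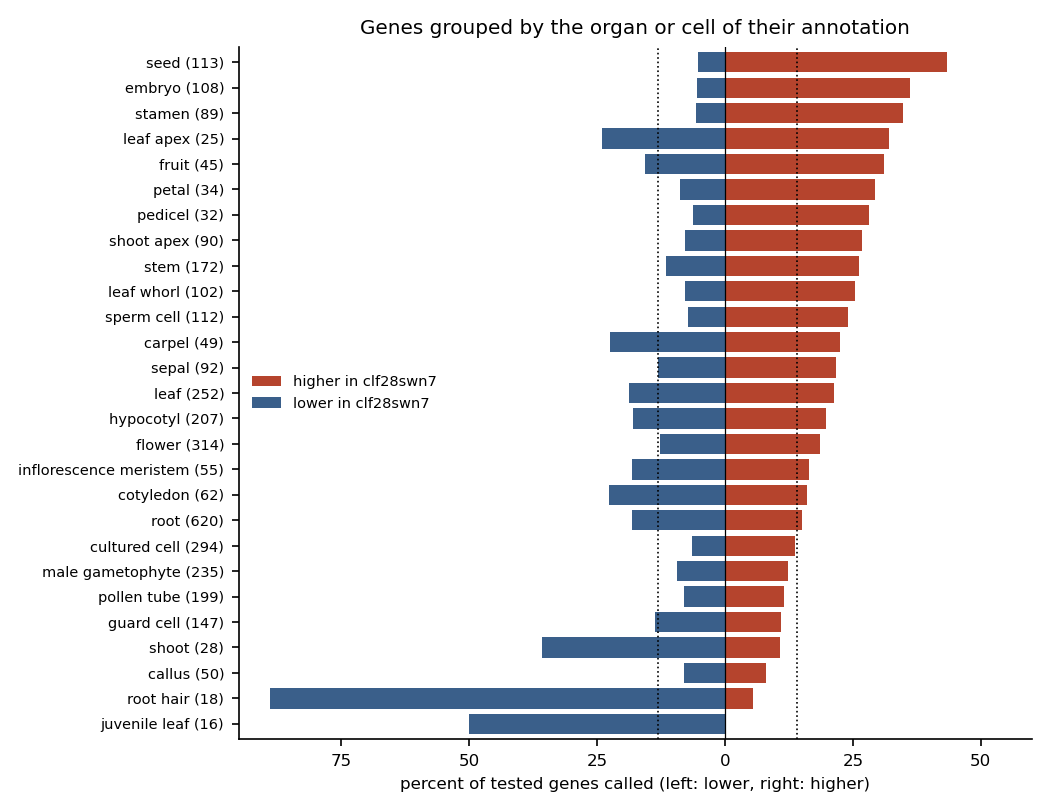
Percentage of tested genes that rose and fell in clf28swn7 against WT among the genes annotated to each of 27 organs or cell types, with dotted lines at the shares over all genes with an organ note, 14% higher and 13% lower. Seed, embryo and stamen stand above the line for genes that rose, and root hair and juvenile leaf above the line for genes that fell. Genes too low to be tested are left out.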

How the data were processed

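Seedling RNA of 4 genotypes, 3 libraries each, described as independent biological replicates, was sequenced. The authors aligned reads to TAIR10 with HISAT2 after FastQC and estimated expression with StringTie, in versions not given in the sources used here. The deposited table held FPKM of 33602 genes, made by the authors, with no columns left unused (0). The labels name polyA RNA and the methods a total RNA library kit. FPKM of 0 are read as listed at 0. Because FPKM keeps no counts, limma 3.58.1 in R 4.3.3 was run on log2(FPKM + 1) for genes of at least 1 FPKM in at least 3 libraries, all 12 libraries in 1 fit, with the thresholds of the study (log2 fold change of at least 1, unadjusted p under 0.05) and Benjamini-Hochberg values beside them. Depth was estimated from the value of 1 fragment in 8472 low genes, and it was lower in clf28swn7. Names, exon lengths, positions, notes and promoters came from RefSeq (TAIR10.1), which holds 32835 of the genes. Of 1160 list symbols 1098 matched, 16 were dropped because they named another gene and 46 did not match, which left 990 genes in 44 lists. Tables were made with Python 3.11.15, pandas 2.3.3 and numpy 2.4.6, figures with matplotlib 3.10.9.

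Genes with full values were drawn mainly from a set chosen by rule. This set held CLF and SWN, the 15 largest changes in each direction with groups that did not overlap, and all cell type markers. From each list it took up to 5 called members of largest change and the member that moved most against its list. In a list with no call it took up to 3 of highest FPKM. Not all genes of the set are given with levels, for example AT1G68250, LHB1B1 and CA2 (log2 fold changes 12.27, −10.91 and −8.36). Other list members and families were named after their values were seen. The members and lists were chosen with earlier results of these data known. Alternatives changed the pseudocount, the filter, the p-value, the libraries fitted, the variance settings, the scaling, the replicate number as a block and each library left out. Those for the contrasts with the other mutants were added after the data were seen. The fit was tested on simulated data. The authors' other data were not used here.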

Additional observations from a re-analysis of the deposited data

How the results depend on the processing

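Under all 15 alternatives the numbers of genes that rose and fell stayed within 1.5 times the reported ones. Genes that rose numbered 2990 with median-of-ratios scaling to 3943 with a pseudocount of 0.1 FPKM, and genes that fell 2572 without a library to 3223 with that pseudocount. Without 1 library the counts were 3012 to 3346 and 2572 to 2735, and the lists held 270 to 283 genes that rose and 221 to 239 that fell. The share of calls that were higher was 55% and, with median-of-ratios scaling, 51.2%. Correlations of the deviations of same-numbered libraries were −0.00923, 0.00795 and −0.0265, so the numbers do not pair the samples. With the replicate number as a block, 3197 genes rose and 2609 fell, of which 3196 and 2608 were also called without it, and the list genes (280 higher, 227 lower) and those differing from emf1-2 (201 higher, 88 lower) kept their counts. Of 4183 values of 279 named genes under alternatives, 4149 kept direction and call, 5 lost the call, 29 gained one and 0 reversed. Of 1320 counts per list, 24 moved by over 1.5 times, such as the xylem genes that fell, 11 with the smaller pseudocount in place of 7. Sizes of change of genes near 0 FPKM depend on the pseudocount, and the shallower clf28swn7 libraries (14100000 to 15000000 fragments) limit what was detectable of genes below 1 FPKM.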

Other observations

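Small nuclear and nucleolar RNAs, which no list above covers, rose more often than they fell. Of 13 annotated snRNA genes 8 were tested, 7 rose and 0 fell. Of 71 annotated snoRNA genes, which guide the modification and cleavage of ribosomal RNA, 41 were tested, 18 rose and 1 fell. Over all tested genes 15.1% rose, but some snRNA genes passed the FPKM minimum only through clf28swn7 and could only be called higher. U2.2, for example, averaged 4.03 FPKM in clf28swn7, against 0 in WT, 0.0285 in emf1-2 and 0.0754 in ring1ab. U3D, a copy of the U3 snoRNA, stood at 92.4, 137 and 132 FPKM in clf28swn7, against 0.751, 0.63 and 0 FPKM in WT (log2 fold change 6.40). U12, an snRNA of the minor spliceosome, stood at 9.6, 6.58 and 7.87 FPKM in clf28swn7, against 0.656, 0.723 and 1.18 FPKM in WT (log2 fold change 2.28). Near-identical copies of these RNAs may share reads. Of 38 tested miRNA genes 4 rose and 5 fell, and of 16 tested tRNA genes 0 rose and 0 fell.

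Histone and ribosomal protein genes rose more often than they fell. Of 31 tested histone genes 12 rose and 0 fell (median log2 fold change 0.80), among them AT3G53650 at 27.1, 24.1 and 25.2 FPKM in clf28swn7, against 2.35, 2.25 and 3.28 FPKM in WT. Of 173 tested genes of cytosolic ribosomal proteins 47 rose and 1 fell (median 0.76). The largest increases in that family were in very short genes of the L41 type. AT2G40205 stood at 423, 453 and 518 FPKM in clf28swn7, against 7.91, 11.5 and 8.86 FPKM in WT (log2 fold change 5.49, SE 0.271), and AT3G11120 at 438, 459 and 500 FPKM in clf28swn7, against 14.1, 17.9 and 12.9 FPKM in WT (log2 fold change 4.88). Exon length moved with the calls over all genes, since 22.5% of tested genes below 350 bases rose and 6.42% fell, and 28.8% of those of 350 to 500 bases rose and 12.2% fell, against 9.67% and 9.11% of those of at least 2500 bases. The part of length in these increases was not tested.

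Genes of the chloroplast genome were lower in clf28swn7, by an amount that depended on WT replicate 1. Of 94 tested genes 78 fell and 0 rose (median −2.08), and without WT replicate 1 58 fell (median −1.53). Ribosomal RNA took 0.318%, 0.3% and 0.306% of the summed FPKM in clf28swn7, against 2.01%, 0.456% and 0.412% in WT, with the same library standing apart.

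Of the 15 genes with the largest decreases, several belong to no list. ASN1, an asparagine synthetase that darkness and low sugar induce, stood at 1.88, 1.38 and 0.946 FPKM in clf28swn7, against 215, 185 and 208 FPKM in WT (log2 fold change −6.42). HBI1, a bHLH factor of cell elongation, stood at 0.229, 0.0542 and 0.188 FPKM in clf28swn7, against 75.7, 72.2 and 72.3 FPKM in WT (log2 fold change −6.01). RGF9, which encodes a peptide of the root meristem growth factor family, stood at 0.475, 0.113 and 0 FPKM in clf28swn7, against 61.2, 65.7 and 57.1 FPKM in WT (log2 fold change −5.72). None of these groups overlapped. Among the largest increases, EPR1, an extensin-like gene known from the endosperm of germinating seeds, stood at 980, 724 and 1197 FPKM in clf28swn7, against 0, 0 and 0.0236 FPKM in WT (log2 fold change 9.88).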
